A study of Mus musculus with 10 samples.

Results

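The genes described here are 10 transcription factors of the endothelial lineage: the SoxF factors Sox7, Sox17 and Sox18, the ETS factors Erg, Fli1 and Ets1, the basic helix-loop-helix factors Tal1 and Lyl1, and Gata2 and Mef2c. They were the genes of the deposited table whose symbol equalled one of these names, 10 of the 55401 listed, and all 10 passed the filter on low counts, as did 14815 genes in all. RNA was sequenced from cells sorted as meningeal lymphatic endothelial cells (LECs). They came from female wild-type C57BL/6 mice (C57BL/6J where the substrain is named) aged 3 months in both groups. The 5 naive replicates came from non-stressed mice and the 5 SCVS replicates from mice after 6 days of sub-chronic variable stress, a paradigm of alternating stressors. Each replicate was a pool of cells from 3 to 4 meninges, sorted as CD45-CD31+podoplanin+ after digestion in the presence of actinomycin D, and the amplified RNA was counted per gene. The comparison asks whether stress changed the expression of these factors in the sorted cells.

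SoxF and ETS factors bind the enhancers of most endothelial genes, often side by side, and ETS factors such as Erg and Fli1 keep mature endothelial cells in their identity. Sox18 switches on Prox1 when lymphatic endothelial cells arise from veins in the embryo, and Gata2 is needed for lymphatic valves. Tal1 and Lyl1 are related helix-loop-helix proteins that pair with E proteins and join GATA and LIM-domain-only partners in blood and endothelial cells, and Mef2c acts with ETS factors in endothelial cells as well as in muscle and neurons.

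Total counts lay between 9984743 and 14094155 per replicate, so that 3 counts, taken as the floor of detection, corresponded to 0.213 to 0.3005 CPM, the count scaled to a column total of 1000000. This floor covers counting error only, because amplified reads without molecular identifiers are not independent molecules. Some libraries went against the gate. Pecam1, which encodes CD31, had 536 to 1119 CPM in 9 replicates and 21.5 CPM in naive replicate 5, where Cdh5, encoding VE-cadherin, had 3.00 CPM against 134.9 CPM or more elsewhere. Pdpn, which encodes podoplanin, had 0 counts in naive replicate 1 and 3.76 CPM in naive replicate 4. Prox1, the factor that defines lymphatic endothelium, also had 0 counts in naive replicate 1, and Lyve1 had 2 counts there and 1 in naive replicate 5. SCVS libraries were affected too. Ptprc, which encodes CD45, had 113 counts in SCVS replicate 4 and 404 in SCVS replicate 5. Prox1 had 15 counts in SCVS replicate 1 and 2 in SCVS replicate 5. A sum of 12 pan-endothelial genes lay between 6020 and 12756 CPM in 9 replicates and was 964 CPM in naive replicate 5, while 10 neuronal and glial genes summed to 3828 CPM in that replicate and to 226 to 2209 CPM in the others. The log2 fold change of each factor is therefore also given without naive replicate 5, or without naive replicates 1 and 5.

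No factor passed the test for a difference between SCVS and naive mice, and every factor overlapped between the groups. With edgeR (quasi-likelihood test, Benjamini-Hochberg adjustment over 14815 genes), 0 of the 10 factors had an adjusted p under 0.1, against 0% of all tested genes, and the adjusted p of each factor was 0.999957. At an unadjusted p under 0.05 the count was 0 of 10, against 3.1% of tested genes. DESeq2 and limma with voom also called 0 of 10 at an adjusted p under 0.1, against 0.769% and 0.0202% of tested genes, and the smallest unadjusted p of a factor was 0.301 in edgeR, 0.286 in DESeq2 and 0.118 in voom. For 0 of 10 factors did all SCVS replicates lie above or below all naive replicates in CPM, against 0.628% of tested genes. The mean CPM was higher in SCVS for 9 of 10 factors, Sox17 being the exception, against 50.9% of tested genes, and the median log2 fold change was 0.26 for the factors and -0.03 for all tested genes. Without naive replicate 5 the factors split evenly, with 5 of 10 higher in SCVS. Their median log2 fold change was then 0.00, against 0.02 for all tested genes. The standard error exceeded the log2 fold change for 9 of the 10 factors, Ets1 being the exception, so that the fits leave room for differences of the sizes given with each gene.

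**Figure D1:**
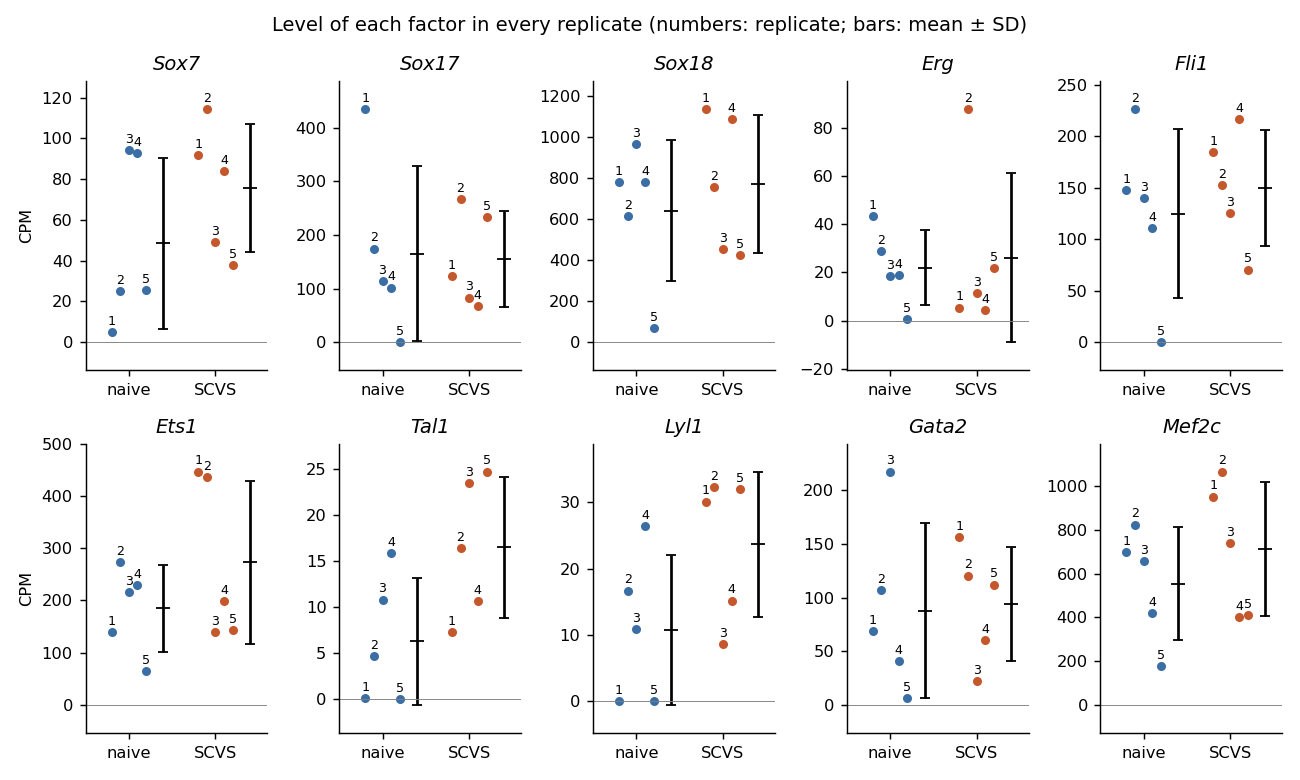
Level of each factor in CPM (vertical axis, linear, a separate scale per gene) in the 5 naive and 5 SCVS replicates; digits give the replicate, and bars the mean ± SD of each group. The groups overlap for all 10 factors, and naive replicate 5 is the lowest of the 10 replicates for 8 of them.

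Levels between genes were compared per kilobase of annotated exon, as CPM per kilobase. Sox18 stood first in 10 of 10 replicates, with a median of 473.7 CPM per kilobase, and Mef2c followed with 91.5 CPM per kilobase and exceeded Fli1 in 9 of 10 replicates. The first place of Sox18 rests on the exon lengths used, 1620 bases for Sox18 and 7396 for Mef2c. In CPM without this division, Mef2c was above Sox18 in naive replicates 2 and 5 and in SCVS replicates 2 and 3. Fli1, Sox17 and Ets1 formed the middle, with medians of 46.3, 37.5 and 32.4 CPM per kilobase, and their order was not firm, since Fli1 exceeded Sox17 in 6 of 10 replicates and Sox17 exceeded Ets1 in 6 of 10. Ets1 was above Gata2, with its 26.1 CPM per kilobase, in 8 of 10 replicates, and Gata2 was above Sox7, with 20.2, in 6 of 10. Lyl1, Erg and Tal1 were the scarcest, at 8.85, 5.37 and 2.45 CPM per kilobase.

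**Figure D2:**
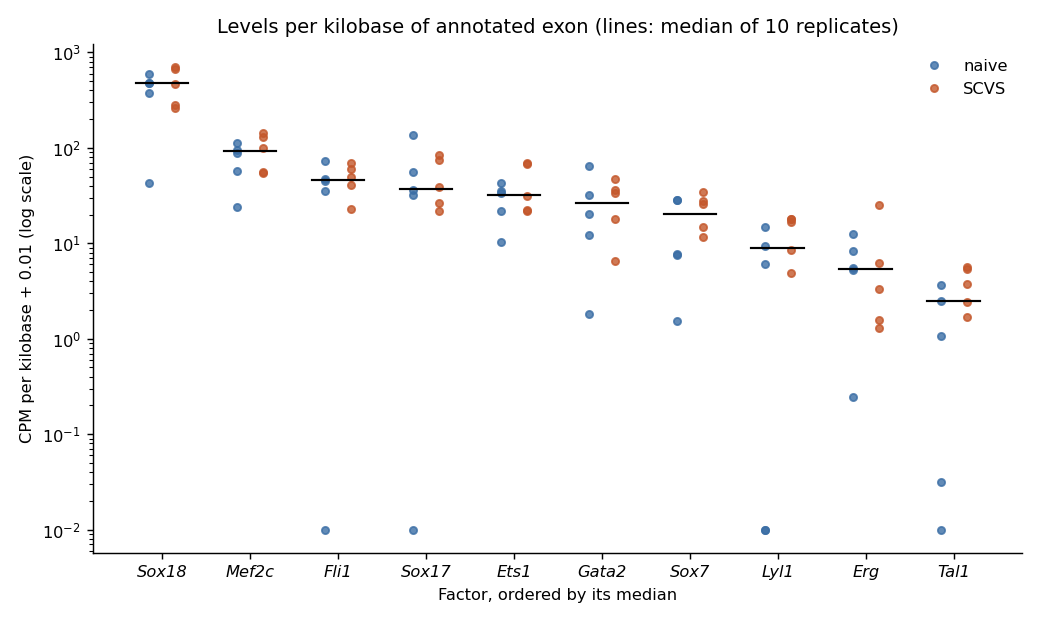
CPM per kilobase of annotated exon (vertical axis, log scale after adding 0.01) for each factor in the 10 replicates, with naive and SCVS replicates side by side and a line at the median of all 10. Points at the bottom edge are replicates with 0 counts, and Sox18 lies above every other factor.

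The SoxF genes encode close relatives that act together in vessel and lymphatic development. Sox18 (ENSMUSG00000046470, GRCm38.p6 chromosome 2, 181669837 to 181671640) had 780.3, 613, 963, 779 and 68.6 CPM in naive replicates 1 to 5 and 1135, 755.5, 453, 1087 and 424 CPM in SCVS replicates 1 to 5. Naive replicate 5 was the low value, 11.4-fold under the mean of the other naive replicates, and the rest of the naive range lay inside the SCVS range. Sox18 averaged 640.9 ± 343 CPM in naive and 771 ± 337 CPM in SCVS mice (± SD, n = 5 per group), a log2 fold change of 0.22 with a 95% interval of -1.0 to 1.44 (edgeR, unadjusted p = 0.703). Without naive replicate 5 the log2 fold change of Sox18 was -0.07.

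Sox17, a factor of arterial endothelium, was the member with a lower mean in SCVS. Sox17 (ENSMUSG00000025902, chromosome 1, 4490928 to 4497426) had 434.7, 174.3, 114, 102 and 0 CPM in the naive replicates and 123, 266, 83.2, 68.0 and 234 CPM in the SCVS replicates. The highest and the lowest value were both naive, in replicates 1 and 5, and they enclosed every SCVS value. Its means were 164.9 ± 163 and 154.8 ± 89.9 CPM (± SD, n = 5 per group), with a log2 fold change of -0.18 and a 95% interval of -2.69 to 2.32 (edgeR, unadjusted p = 0.876). The sign followed single libraries, since the log2 fold change was 0.63 without naive replicate 1, -0.50 without naive replicate 5 and 0.21 without both.

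Sox7 (ENSMUSG00000063060, chromosome 14, 63943706 to 63950732), which with its relatives guides vessel sprouting, had 5.09, 25.0, 94.3, 92.8 and 25.6 CPM in the naive replicates and 91.7, 114, 49.2, 84.0 and 38.0 CPM in the SCVS replicates. Naive replicates 1, 2 and 5 lay below every SCVS replicate, and naive replicates 3 and 4 lay among the highest SCVS values. The log2 fold change was 0.58 with a 95% interval of -0.96 to 2.13 (edgeR, unadjusted p = 0.428), on means of 48.6 ± 41.9 and 75.4 ± 31.4 CPM (± SD, n = 5 per group), and it was 0.05 without naive replicates 1 and 5. Within the family, Sox18 supplied 75.4% to 93.4% of the summed CPM per kilobase of the SoxF genes in every replicate. Sox17 reached its largest share, 22.2%, in naive replicate 1, and Sox7 its largest, 15.5%, in naive replicate 5.

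Among the ETS factors, Fli1 and Ets1 had the higher levels per kilobase and Erg the lowest. Fli1 (ENSMUSG00000016087, chromosome 9, 32422204 to 32543432) had 148, 227, 140.2, 111 and 0 CPM in the naive replicates and 185, 152, 126, 217 and 70.5 CPM in the SCVS replicates. Naive replicate 5 had no Fli1 count in a total of 13329263, which allows up to 0.225 CPM, and the other naive replicates lay within or just above the SCVS range. On average they were at least 694-fold higher. The log2 fold change was 0.22 with a 95% interval of -2.12 to 2.56 (edgeR, unadjusted p = 0.838), and it was -0.10 with an unadjusted p of 0.801 in edgeR without naive replicate 5. The annotation places a small nuclear RNA gene, Gm22060, inside Fli1.

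Ets1 (ENSMUSG00000032035, chromosome 9, 32636241 to 32757820), a factor activated in growing vessels and in lymphocytes, had 139, 274, 217, 229 and 65.5 CPM in the naive replicates and 447, 436, 139, 199 and 143 CPM in the SCVS replicates. SCVS replicates 1 and 2 were above all others, and the remaining SCVS values fell among the naive ones. Its means were 185 ± 82.7 and 273 ± 155 CPM (± SD, n = 5 per group), and the log2 fold change of 0.49 had a 95% interval of -0.50 to 1.49 (edgeR, unadjusted p = 0.301), the smallest p among the 10 factors in that test. Without naive replicate 5 the log2 fold change of Ets1 was 0.28 (edgeR, unadjusted p = 0.495), and without naive replicates 1 and 5 it was 0.14 (edgeR, unadjusted p = 0.756). Erg (ENSMUSG00000040732, chromosome 16, 95359169 to 95586600), which represses inflammatory genes in resting endothelium, had 43.3, 28.7, 18.4, 19.0 and 0.825 CPM in the naive replicates and 5.46, 87.7, 11.4, 4.46 and 21.8 CPM in the SCVS replicates. SCVS replicate 2 stood far above the rest of its group, and SCVS replicates 1, 3 and 4 were lower than every naive replicate apart from replicate 5. Erg had the widest relative spread of the factors, with a coefficient of variation of 106.5% over the 10 replicates, and its log2 fold change of 0.10 (95% interval -2.33 to 2.54, edgeR, unadjusted p = 0.926) became -1.03 without SCVS replicate 2 and -0.19 without naive replicate 5.

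Tal1 and Lyl1 shared a pattern among the naive replicates. Tal1 (ENSMUSG00000028717, chromosome 4, 115056426 to 115071755), a master regulator of blood formation that also marks endothelium, had counts of 1, 59, 151, 215 and 0 in naive replicates 1 to 5 and of 103, 200, 290, 141 and 247 in SCVS replicates 1 to 5. Lyl1 (ENSMUSG00000034041, chromosome 8, 84701423 to 84704716), its close relative, had counts of 0, 213, 152, 359 and 0 in naive mice and of 424, 393, 107, 201 and 319 after SCVS, in the same order. Naive replicates 1 and 5 were at or below the floor of 3 counts for both genes, and the other naive replicates lay within the SCVS range apart from Tal1 in naive replicate 2, which was below it. Tal1 averaged 6.27 ± 6.93 and 16.5 ± 7.68 CPM in naive and SCVS mice (± SD, n = 5 per group), and Lyl1 10.8 ± 11.3 and 23.6 ± 11.0 CPM. Their log2 fold changes were the largest of the 10 and the least precise: 1.39 with a 95% interval of -2.06 to 4.84 for Tal1 (edgeR, unadjusted p = 0.397) and 1.10 with an interval of -2.43 to 4.63 for Lyl1 (edgeR, unadjusted p = 0.51). Without naive replicates 1 and 5 the log2 fold changes were 0.66 for Tal1 and 0.37 for Lyl1. In RefSeq, Nfix overlaps Lyl1 and the non-coding gene Gm33786 overlaps Tal1, so that without a stated use of strand some reads cannot be assigned with certainty.

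The promoter sequences of this pair are shown because both genes were at or under the floor in the same libraries. RefSeq promoter windows of GRCm38.p6, 250 bases before to 50 after a transcription start, were available for 5 of the 10 factors (Erg, Gata2, Lyl1, Mef2c and Tal1), 11 windows in all. The windows printed here are all on the plus strand. Capitals mark GGAAG, a form of the ETS site, and GATAA, a form of the GATA site. Matches on the reverse strand, which read CTTCC and TTATC, are marked too. The Lyl1 window is chr8:84701207-84701506, and the Tal1 windows are chr4:115056176-115056475 and chr4:115057561-115057860.
Lyl1: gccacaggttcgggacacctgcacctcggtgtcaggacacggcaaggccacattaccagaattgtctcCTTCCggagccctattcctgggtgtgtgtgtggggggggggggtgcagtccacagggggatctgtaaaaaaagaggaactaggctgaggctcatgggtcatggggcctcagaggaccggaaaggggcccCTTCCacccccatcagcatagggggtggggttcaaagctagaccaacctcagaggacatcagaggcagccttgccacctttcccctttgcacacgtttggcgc
Tal1 first start: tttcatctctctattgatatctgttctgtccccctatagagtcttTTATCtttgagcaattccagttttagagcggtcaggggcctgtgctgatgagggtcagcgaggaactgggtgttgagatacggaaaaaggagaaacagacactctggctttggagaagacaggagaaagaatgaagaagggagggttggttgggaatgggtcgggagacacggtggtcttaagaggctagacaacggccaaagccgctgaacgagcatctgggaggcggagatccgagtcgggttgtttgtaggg
Tal1 second start: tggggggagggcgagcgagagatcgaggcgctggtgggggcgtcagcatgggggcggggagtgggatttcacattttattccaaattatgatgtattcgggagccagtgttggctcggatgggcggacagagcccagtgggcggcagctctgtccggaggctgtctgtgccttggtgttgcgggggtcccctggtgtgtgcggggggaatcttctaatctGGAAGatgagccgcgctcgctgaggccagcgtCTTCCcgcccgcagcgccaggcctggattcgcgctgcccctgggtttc
The Lyl1 window held 2 GGAAG and no GATAA. The first Tal1 window held 1 GATAA and no GGAAG, and the second held 2 GGAAG and no GATAA. By these letters the windows did not share one arrangement. The shorter GGAA, which occurs unmarked in each of these windows, was not searched, nor was GATA. Both strands were searched, also for the E-box CANNTG, to which helix-loop-helix factors bind, and for the SOX core ACAAT, and matches of different motifs could overlap. The Lyl1 window and the first Tal1 window each held 1 E-box, and the Lyl1 window held 1 SOX core. Of the 11 member windows, 7 held GGAAG, 3 GATAA, 6 CANNTG and 3 ACAAT, against 71.4%, 25.4%, 72.3% and 31% of all 32851 windows, and such matches are letters in a window and not evidence of binding.

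Gata2 (ENSMUSG00000015053, chromosome 6, 88193891 to 88207032) had 68.5, 107, 217, 40.7 and 6.08 CPM in the naive replicates and 156, 120.5, 21.8, 60.5 and 112 CPM in the SCVS replicates. The highest and lowest values were again both naive, in replicates 3 and 5. Its means of 87.8 ± 81.2 and 94.3 ± 53.1 CPM (± SD, n = 5 per group) gave a log2 fold change of 0.03 with a 95% interval of -1.65 to 1.72 (edgeR, unadjusted p = 0.968), and the sign turned when any of 6 single replicates was left out, with -0.27 without naive replicate 5. Gata2 is also a factor of mast cells and blood progenitors, and a sum of 8 mast cell genes reached 291 CPM in SCVS replicate 5 against 0 to 55.9 CPM elsewhere. A non-coding gene, Gm38708, overlaps Gata2 in RefSeq.

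Mef2c (ENSMUSG00000005583, chromosome 13, 83504017 to 83667079) had 698, 824, 656, 419 and 176 CPM in the naive replicates and 953, 1067, 739, 401 and 410.1 CPM in the SCVS replicates. SCVS replicates 1 and 2 were the highest and naive replicate 5 the lowest, with the other values interleaved. Mef2c had the narrowest relative spread of the factors, a coefficient of variation of 44.0% over the 10 replicates, where the median was 65.9% for the factors and 92.8% for all tested genes. Its means were 555 ± 258 and 714 ± 305 CPM (± SD, n = 5 per group), a log2 fold change of 0.30 with a 95% interval of -0.63 to 1.22 (edgeR, unadjusted p = 0.496) and of 0.07 without naive replicate 5. The non-coding genes Gm52043 and Gm52044 overlap it in RefSeq.

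**Figure D3:**
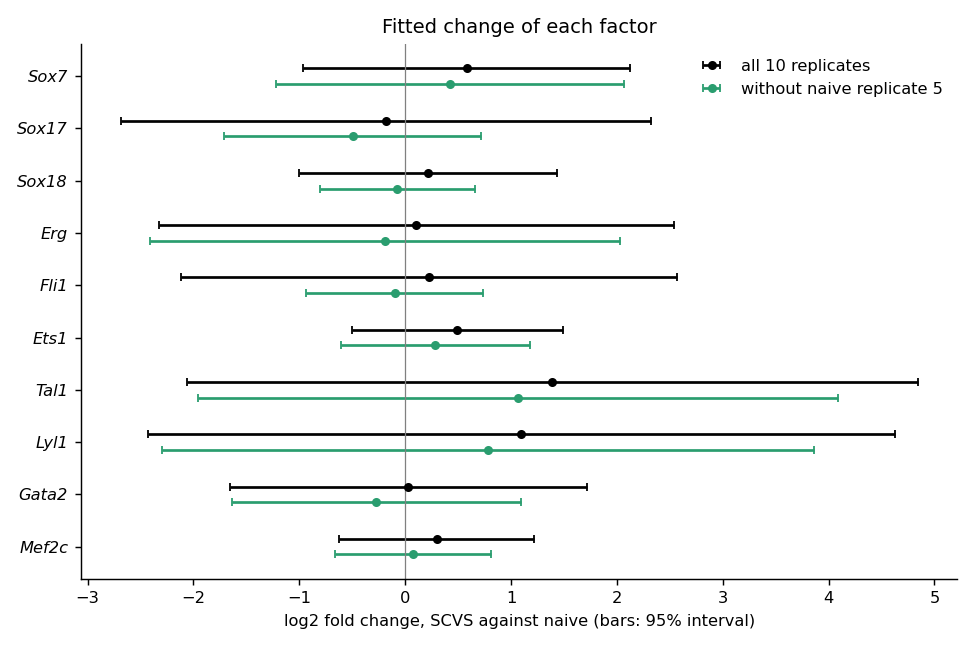
Fitted log2 fold change of each factor, SCVS against naive (horizontal axis), with 95% intervals from edgeR's quasi-likelihood fit, for all 10 replicates (black) and without naive replicate 5 (green). All intervals include 0, and without that replicate 5 of the 10 point estimates lie above 0.

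Detection of the factors varied between libraries. All 10 factors had more than 3 counts in the 5 SCVS replicates and in naive replicates 2, 3 and 4. In naive replicate 1 this held for 8 factors and in naive replicate 5 for 6, where Sox17, Fli1, Tal1 and Lyl1 were at 0. Of all tested genes, 68.6% had more than 3 counts in naive replicate 1 and 77.3% in naive replicate 5. In the other replicates the share was 70.8% to 83.7%. In all 10 replicates together, 6 of 10 factors had more than 3 counts throughout, against 38.1% of tested genes. Naive replicate 5 was the lowest replicate for 8 of 10 factors and for 11.1% of tested genes, while Sox7 was lowest in naive replicate 1 and Lyl1 was at 0 in both. The other naive replicates averaged 33.1-fold more Erg, 17.8-fold more Gata2, 3.69-fold more Mef2c, 3.28-fold more Ets1 and 2.12-fold more Sox7 than naive replicate 5, and at least 916-fold more Sox17, 34.8-fold more Tal1 and 60.0-fold more Lyl1 than its floor of 3 counts.

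The summed CPM of the 10 factors was 2316, 2294, 2441, 1835 and 343 in the naive replicates and 3133, 3048, 1655, 2147 and 1511 in the SCVS replicates. The low sum of naive replicate 5 went with its low pan-endothelial sum. In such pooled samples, fewer endothelial cells and less of these RNAs per cell cannot be told apart. Set against the 12 pan-endothelial genes of the same replicate, the factors came to 23.4, 23.4, 19.1, 20.7 and 35.6 per 100 pan-endothelial counts in the naive replicates and to 27.7, 25.2, 27.5, 24.6 and 21.9 in the SCVS replicates. On this scale naive replicate 5 was the highest of the 10 and the other naive replicates lay between 19.1 and 23.4. The mean was higher in SCVS for 7 of 10 factors, Sox7, Ets1 and Mef2c being the exceptions. Without naive replicate 5 the naive means of Sox7, Ets1 and Mef2c were 0.52, 2.12 and 6.34. These lay below their SCVS means of 0.82, 2.85 and 8.02. The naive means of Sox17 and Erg were then 2.05 and 0.272, above their SCVS means of 1.77 and 0.266.

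**Figure D4:**
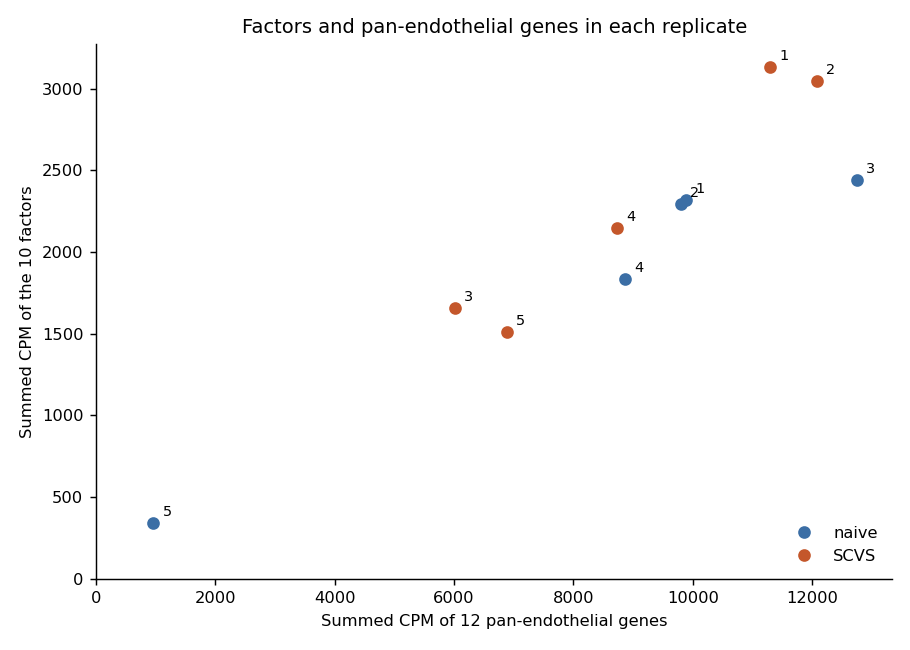
Summed CPM of the 10 factors (vertical axis) against the summed CPM of 12 pan-endothelial genes (horizontal axis) in each naive and SCVS replicate, with the replicate number beside each point. Naive replicate 5 lies apart at 343 and 964 CPM, and the other points lie between 1511 and 3133 CPM and between 6020 and 12756 CPM.

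The factors did not stand in fixed proportion to the pan-endothelial genes. Sox18 in naive replicate 5 was 7.12 per 100 pan-endothelial counts, inside the 6.16 to 12.5 of the other replicates, whereas Mef2c was 18.3 there against at most 12.3 elsewhere, Ets1 6.80 against at most 3.95 and Sox7 2.65 against at most 1.05. So naive replicate 5 was unexceptional for Sox18 on this scale and the highest for Mef2c, Ets1 and Sox7. Erg and Gata2 there, at 0.0856 and 0.631, also lay within the range of the other replicates, whereas Sox17, Fli1, Tal1 and Lyl1 were at 0. Mef2c is also expressed in neurons, and the neuronal and glial genes, all 10 of them above 3 counts in naive replicate 5, summed to 3828 CPM there, against 226 to 1184 CPM in the other naive and 229 to 2209 CPM in the SCVS replicates, and their part in the Mef2c value was not tested.

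Markers of blood cells also differed between the replicates, and Tal1, Lyl1, Fli1 and Gata2 are all expressed in blood lineages. A sum of 10 leukocyte genes was 20.8 to 658 CPM in naive and 249 to 6963 CPM in SCVS mice, with the highest value in SCVS replicate 4. Cd74 and Lyz2 made up most of that highest value, at 3384 and 3098 CPM. Ptprc had at most 1 count per naive library and 27, 0, 0, 113 and 404 counts in SCVS replicates 1 to 5. A sum of 8 erythroid genes was 4.32 to 46.7 CPM in naive and 17.5 to 4915 CPM in SCVS mice, with the highest value in SCVS replicate 5. Tal1 was 24.7 CPM in that replicate and nearly as high, 23.5 CPM, in SCVS replicate 3, where the erythroid sum was 29.7 CPM, and it was 10.7 CPM in SCVS replicate 4, where the leukocyte sum was highest. Platelet genes, 6 in number, summed to 0.672 and 0.075 CPM in naive replicates 1 and 5, the replicates with at most 1 count of Tal1 and Lyl1, and to 95.3 to 532 CPM in the other 8. At most 3 counts were found in naive replicate 5 for 7 of the 10 leukocyte genes, 4 of the 8 erythroid genes and 6 of the 6 platelet genes, and in naive replicate 1 for 6, 7 and 5 of them. The part of these cells in the levels of the factors was not tested.

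Vessel type was likewise uneven between the libraries. The 9 lymphatic genes summed to 74.4 CPM in naive replicate 1, 196 CPM in naive replicate 5 and 1068 to 2929 CPM in the other naive replicates, and to 471 to 3243 CPM in SCVS mice. Naive replicate 1 had 4 of the 9 lymphatic genes at no more than 3 counts, yet its pan-endothelial sum was 9891 CPM, its Sox17 level was the highest of all replicates and its Sox7 level the lowest. The 10 blood endothelial genes summed to 431 CPM in naive replicate 5, 7004 to 13420 CPM in the other naive replicates and 5750 to 9207 CPM in SCVS mice. In every replicate this sum was above the lymphatic sum, for example 13420 against 1068 CPM in naive replicate 3 and 6403 against 471 CPM in SCVS replicate 5. Mural genes, 8 in number, summed to 770.1 to 7681 CPM in naive and 430 to 5914 CPM in SCVS mice, and 8 fibroblast genes to 71.6 to 2020.4 CPM and 203 to 1849 CPM. Rgs5 made up most of the mural sum, on average 3082 of 3695 CPM in naive and 2671 of 2766 CPM in SCVS mice. In naive replicate 5 Rgs5 was at 5057 CPM, and 6 of the 8 mural genes had at most 3 counts. The lowest lymphatic sums were thus in naive replicates 1 and 5, where Tal1 and Lyl1 had at most 1 count. The part of vessel type in the levels of Sox7, Sox17, Tal1 and Lyl1 was not tested.

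**Figure D5:**
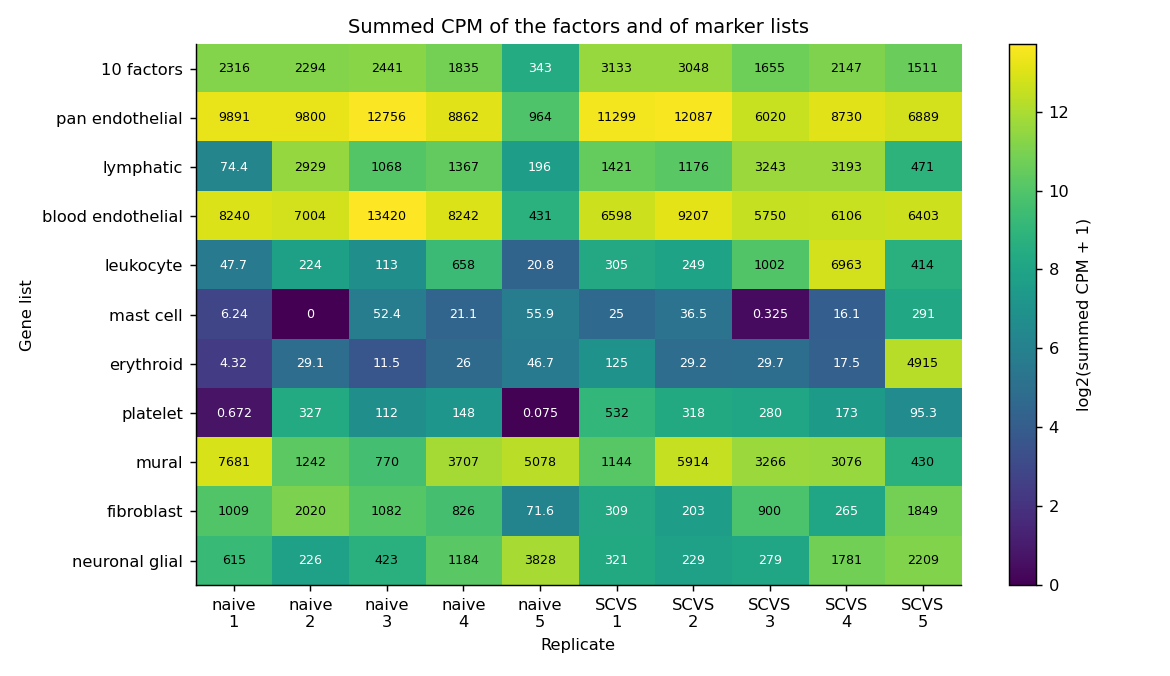
Summed CPM of the 10 factors and of 10 marker lists (vertical axis) in each replicate (horizontal axis), printed in each cell and coloured by log2 of the summed CPM plus 1. Naive replicate 5 is low for the factors and for the endothelial lists and has the highest neuronal and glial sum, and naive replicate 1 has the lowest lymphatic sum.

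The RNAs of proteins with which these factors work were counted too. Of 13 partner genes, 0 passed an adjusted p under 0.1 in edgeR in either direction, against 0% of all tested genes. At an unadjusted p under 0.05 in edgeR the count was 0, against 3.1%. Their median log2 fold change was 0.32, and 0.33 without naive replicate 5, against -0.03 and 0.02 for all tested genes. These values of all tested genes also apply to the lists below. The most abundant by CPM was the E protein gene Tcf4, with 480 ± 214 CPM in naive and 667 ± 214 CPM in SCVS mice (± SD, n = 5 per group). Lmo2, which bridges Tal1 and GATA factors, had 138, 229, 250, 145 and 74.3 CPM in the naive replicates and 368, 574, 199, 239 and 87.6 CPM in the SCVS replicates. Lmo2 was thus well detected in naive replicates 1 and 5, where Tal1 and Lyl1 had at most 1 count. Cbfa2t3, a corepressor in the same complex, had 1 count in naive replicate 1 and 126 or more in every other replicate, and was picked out after its values were seen. The coactivator gene Crebbp had 92.8 ± 46.6 and 98.5 ± 32.2 CPM, and Hdac7, a repressor that binds MEF2 proteins, 92.6 ± 59.9 and 76.4 ± 64.6 CPM (± SD, n = 5 per group).

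Relatives in the same protein families gave 0 genes past the threshold of 22 tested of 28, with a median log2 fold change of 0.25, and of 0.36 without naive replicate 5. The 4 most abundant were Mef2a, Elf1, Elk4 and Mef2d. Mef2a, a close relative of Mef2c, had 105 ± 59.5 CPM in naive and 176 ± 42.2 CPM in SCVS mice (± SD, n = 5 per group), a log2 fold change of 0.70 with a standard error of 0.46. A single relative of the 22 tested, Sox12, had an unadjusted p under 0.05 in edgeR, against 3.1% of all tested genes. It was also the only relative that did not overlap between the groups, against 0.628% of all tested genes. It too is named for its values. Sox12 had 0 counts in every naive replicate and 12, 18, 1, 2 and 26 counts after SCVS, at least 4.37-fold higher on mean CPM against the floor of 3 counts per naive replicate. A pair of its SCVS values lay under that floor, and its adjusted p was 0.964 in edgeR. Only SCVS replicates carried Sox12 past the filter on low counts, so that neither its p nor its lack of overlap supports a difference.

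Other endothelial transcription factors, 21 tested of 24, also gave 0 genes past the threshold and 0 with an unadjusted p under 0.05 in edgeR, and their median log2 fold change moved from 0.13 to -0.05 without naive replicate 5. Epas1, a hypoxia-responsive factor, had 661 ± 270 and 563 ± 217 CPM, and Klf2, a factor induced by flow, 233 ± 137 and 311 ± 124 CPM in naive and SCVS mice (± SD, n = 5 per group). The ETS genes Elk3 and Ets2 had 224 ± 112 and 313 ± 168 CPM, and 185 ± 141 and 160 ± 85.4 CPM. Prox1 was uneven in both groups, with 0, 69.4, 52.0, 4.13 and 63.2 CPM in naive and 1.06, 23.4, 223, 123 and 0.200 CPM in SCVS replicates, and its embryonic activator Sox18 had 780.3 CPM in the naive replicate with no Prox1 count.

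Endothelial genes that SoxF and ETS factors are known to bind gave 0 of 18 past the threshold and 0 of 18 with an unadjusted p under 0.05 in edgeR, with a median log2 fold change of -0.05, and of -0.35 without naive replicate 5, and 9 of these genes are also on the pan-endothelial list. The most abundant by CPM were Emcn, Flt1, Egfl7 and Kdr. Kdr, which encodes the main receptor for VEGF-A, had 806 ± 480.3 and 1142 ± 473 CPM, and Flt1, a decoy receptor, 1054 ± 592 and 1089 ± 328 CPM in naive and SCVS mice (± SD, n = 5 per group). For both genes the difference between the groups was smaller than the SD within either.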

How the data were processed

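Sorted CD45-CD31+podoplanin+ cells of 5 naive and 5 SCVS pools were sequenced after whole-transcriptome amplification. The authors deposited raw read counts per gene, with no normalization and no filter. Their processing notes name cutadapt 1.9.1, HISAT2 2.0.1, HTSeq 0.6.1, DESeq2 and the GRCm38 build, whereas the study's methods name mm9. Of the 55401 identifiers, 32589 (58.8%) are in GENCODE M1 (mm9), from which exon lengths were taken. Positions and promoters are those of RefSeq GRCm38.p6. Use of strand is not given in the sources used here.

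A gene was tested if it had more than 5 counts in 3 or more replicates, 14815 in all, with edgeR 4.0.16 (R 4.3.3; TMM, quasi-likelihood, no covariates) and Benjamini-Hochberg adjustment at 0.1, the filter and threshold of the study's methods. The standard error is the absolute log2 fold change divided by the square root of the F statistic, and intervals use the test's degrees of freedom. The biological coefficient of variation was 1.59. CPM were scaled to the column total. Alternatives were DESeq2 1.42.0, limma 3.58.1 with voom and quality weights, other scaling and filters, a replicate block and leaving out replicates. Leaving out naive replicates 1 and 5 together and scaling to pan-endothelial genes were added after seeing the data. Python 3.11.15 with pandas 2.3.3 and Matplotlib 3.10.9 was used.

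Named genes are the 10 factors, the 4 genes with the highest mean CPM at most of each other list, and the gate and identity genes. The members and lists were chosen with earlier results of these data known. Replicates are separate pools, the same number in both groups does not mark the same animals, and their cohort or sequencing run is not given in the sources used here. The tests were tested on simulated counts of the SCVS against naive comparison, with 200 genes changed by a log2 fold change of 4. At low spread (14757 genes) edgeR, DESeq2 and voom each recovered all 200, with 23, 42 and 24 false calls. In a second simulation (14613 genes) every gene had the same spread, the common biological coefficient of variation of 1.59. There edgeR, DESeq2 and voom recovered 0, 86 and 2, with 0, 240 and 4 false calls. The median coefficient of variation in CPM was 65.9% for the factors and 92.8% for all tested genes. These recovered counts therefore give no detection limit for the factors.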

Additional observations from a re-analysis of the deposited data

Results flagged for a closer look

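Among 28 groups of 5 replicates, of the 10 factors, their sum and related measures, 3 held a replicate whose gap to its nearest neighbour exceeded Dixon's 95% critical value, and chance alone marks about 1 in 20 groups. Erg in SCVS replicate 2 was 87.7 CPM, above the 4.46 to 21.8 CPM of the other SCVS replicates. The summed level of the 10 factors in naive replicate 5 was 343 CPM, below the 1835 to 2441 CPM of the other naive replicates. In the same replicate the factors came to 35.6 per 100 pan-endothelial counts, above the 19.1 to 23.4 of the other naive replicates.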

How the results depend on the processing

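No factor passed the threshold under any of the 17 alternatives run for each, and of the 170 values this gave, 150 kept the direction of the reported value and 20 turned. In these fits Sox7, Ets1, Tal1, Lyl1 and Mef2c never turned. Scaled to the pan-endothelial genes over all replicates, however, the means of Sox7, Ets1 and Mef2c were lower in SCVS than in naive mice. On that scale they were higher in SCVS once naive replicate 5 was left out, and those of Sox17 and Erg were lower. DESeq2 called 114 genes in all and voom 3, against 0 in edgeR. The log2 fold change of Sox17 was 1.07 in voom and 0.21 without naive replicates 1 and 5, that of Erg was -0.11 in voom, where Fli1, Tal1 and Lyl1 had 1.07, 2.43 and 2.61, and without naive replicates 1 and 5 those of Sox18, Fli1 and Gata2 were -0.054, -0.10 and -0.43. Leaving out each replicate in turn gave 0 called genes throughout, ranges of -0.50 to 0.63 for Sox17, -0.072 to 0.42 for Sox18, -1.03 to 0.56 for Erg, -0.10 to 0.53 for Fli1 and -0.27 to 0.71 for Gata2, a median over the factors of 0.00 to 0.49 (0.61 in voom and 0.52 with the replicate block, against 0.26), and 5 to 10 factors higher in SCVS, the 5 coming without naive replicate 5. Same-numbered replicates did not deviate together (correlations of -0.02 to 0.15), and a replicate block turned Sox17 to 0.19 and Erg to -0.23 and gave Tal1 2.85, Lyl1 2.28 and Fli1 0.85, with 0 factors called. The cause of these turns was not tested. At these depths 3 counts limit detection, which bears on Tal1, Lyl1, Sox17 and Fli1 in naive replicate 5.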
